A study of Mus musculus with 137 samples.

Results

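Duodenal crypts of mice given the lowest concentrations of hexavalent chromium, Cr(VI), in drinking water for 90 days were compared with crypts of untreated mice at day 91. Of the 137 libraries in the series, which came from 71 mice in 28 groups, 15 crypt libraries entered this comparison. The low-dose group pooled 5 mice at 0.1 ppm (mice 81 to 85) with 5 mice at 1.4 ppm (mice 161 to 165), and the control group held 5 mice at 0 ppm (mice 3, 5, 6, 7, and 8). The libraries were chosen by the compartment, concentration, and duration in their labels, not by any measured value, and each came from a different mouse. All mice were female wildtype B6C3F1 hybrids, Cr(VI) was supplied as sodium dichromate dihydrate, and the age of the mice was not given in the sources used here. The tissue was a section of formalin-fixed, paraffin-embedded duodenum from which the villi had been dissected away, and what remained on the slide was scraped into lysis buffer, so the crypt sample was mixed tissue and not a purified cell type. In such a sample, fewer cells of a type and less RNA per cell cannot be told apart.

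Crypts are the pits at the base of the intestinal villi where stem cells divide and where Paneth cells secrete antimicrobial peptides. Cr(VI) is an oxyanion that enters cells through anion transporters and is reduced inside them, and the reduced metal binds proteins and DNA. Cells answer metal and oxidative stress through several known programs, among them the metallothioneins, which are small cysteine-rich proteins that bind zinc and other metals, the antioxidant genes driven by Nrf2, and the p53 targets that respond to DNA damage. The question put to these libraries was whether the crypt, which lies below the surface that meets the drinking water first, carried any change in RNA at 0.1 and 1.4 ppm.

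RNA was measured with TempO-Seq, in which a pair of detector oligonucleotides is ligated on each target transcript and the ligated probe is sequenced and counted. Total counts per library ran from 2717447 to 6386748, and 15603 to 22408 probes had at least 1 count. The mean total was 4219000 ± 1120000 (SD) in controls and 4741000 ± 830000 in low-dose libraries, a difference of 522300 that did not pass a two-sided exact permutation test over 3003 arrangements (p = 0.323). The crypt label held against the 1 marker compared here. Lyz1, the lysozyme of Paneth cells, ran from 1098 to 3692 CPM in controls and from 1382 to 3140 CPM in low-dose crypts, whereas the highest of the day 91 control villus libraries had 638 CPM. Transcripts of absorptive enterocytes were also abundant in the crypt libraries. A list of 20 such genes summed to 28930 to 54900 CPM in controls and 32410 to 61430 CPM in low-dose crypts. CPM here are counts scaled to a common library size by the trimmed mean of M-values (TMM).

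Pancreatic transcripts set some libraries apart. The acinar cells of the pancreas, which lies against the duodenum, make digestive enzymes, and the 21 measured genes of the acinar list took 14.3% of all counts in control mouse 5. The summed level of the list was 42.7, 200600, 20.0, 29500, and 3372 CPM in control mice 3, 5, 6, 7, and 8. In low-dose crypts it ran from 30.1 CPM through a median of 3564 to 40490 CPM in mouse 84 at 0.1 ppm. The ranges overlapped fully, and the 3 libraries above 20000 CPM (mice 5, 7, and 84) were left out as a set for the values given without them below. All 21 genes had a log2 fold change below 0 with every library, with a median of −2.50, and all 21 had one above 0 without those 3 libraries, with a median of 1.74. The 3 were picked by the sum of this same list, control mice 5 and 7 among them, so this change of sign is not independent of that choice. Erythroid and Brunner gland markers were at or near 0 in all 15 libraries.

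**Figure D1:**
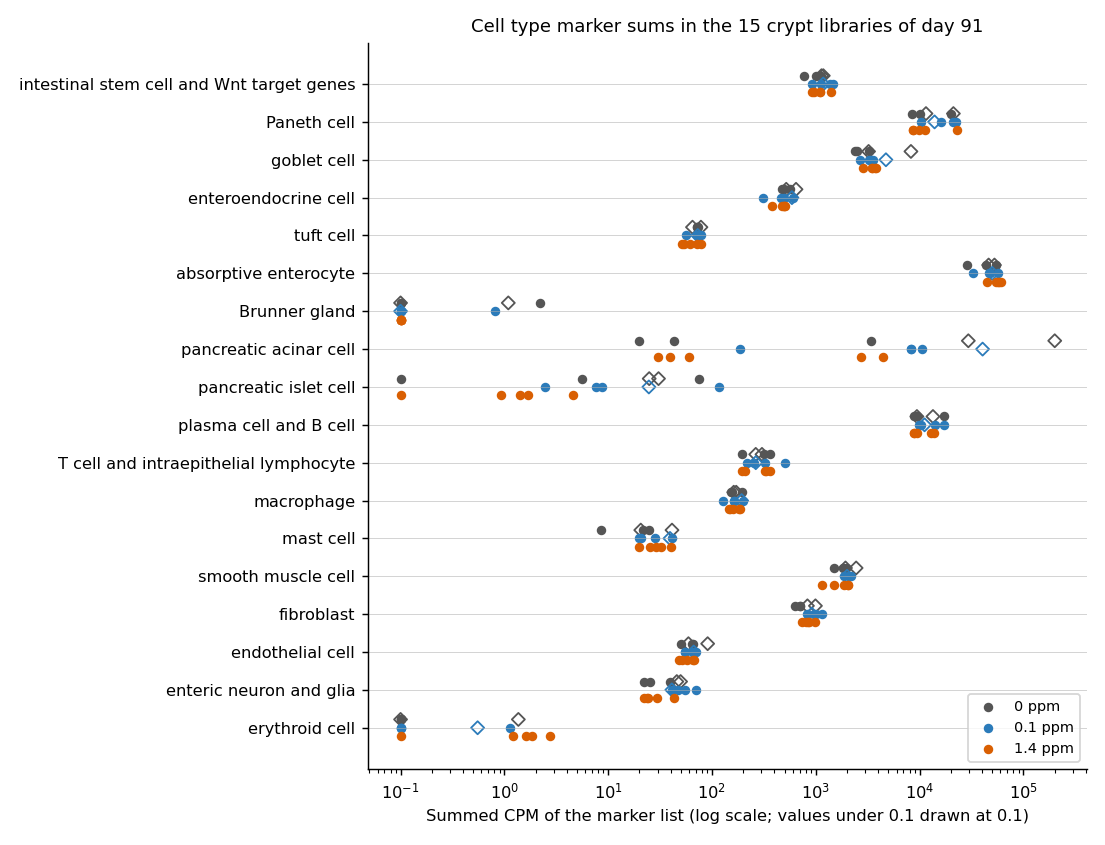
Summed CPM of cell type marker lists (log10 axis) in each of the 15 crypt libraries, colored by concentration (0, 0.1, and 1.4 ppm), with values under 0.1 drawn at 0.1 and the 3 acinar-rich libraries as open diamonds. The acinar list spread from 20.0 to 200600 CPM within the control group alone, while the Paneth, stem cell, and enterocyte lists overlapped between control and low-dose libraries.

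No transcript passed the test. Of 26365 probes for 19020 genes that passed the count filter, 0 (0%) had an adjusted p below 0.1 in the pooled comparison by edgeR's quasi-likelihood test with Benjamini-Hochberg adjustment, and the smallest adjusted p was 0.525. At an unadjusted p below 0.05, 845 probes (3.21%) were on the higher side in low-dose crypts and 665 (2.52%) on the lower side. These shares differed with level. Below a mean of 1 CPM over the 15 libraries, 1280 of 7993 probes (16%) were under that p. It was 1.01% between 1 and 10 CPM, 1.18% between 10 and 100 CPM, and 2.56% from 100 CPM. Each concentration against the same 5 controls gave 0 called probes (0%) as well, with smallest adjusted p values of 0.865 at 0.1 ppm and 0.731 at 1.4 ppm. The median log2 fold change over all tested probes was 0.016. DESeq2 on all libraries had 243 probes higher and 127 lower at an unadjusted p below 0.05 and called 12 genes at the threshold of 0.1, which are described below and each of which had no counts at all in one of the compared groups.

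The precision of this comparison differed with level. For the 1990 probes with a mean of at least 100 CPM over the 15 libraries, the median SE of the log2 fold change was 0.21, so that a 95% interval reached 0.41 to either side of the estimate. Between 10 and 100 CPM the median SE was 0.39 over 8053 probes, and between 1 and 10 CPM it was 1.17 over 8312 probes. At that level the interval reached 2.29 to either side, so a change of 1 log2 unit in a single transcript was not detectable there. These intervals are for 1 probe, without adjustment for the 26365 tested. Changes of that size were not always called at higher levels either. Pck1 at −1.45 and Azin1 at 1.04, described below, each had an adjusted p of 0.525 by edgeR. The SEs above belong to the fit of all libraries. In a fit of the 15 libraries alone, the SEs of Pck1 and Azin1 were 0.24 and 0.18.

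Among those 1990 well expressed probes, 35 (1.76%) had a log2 fold change beyond 1 in either direction, and all 35 were lower in low-dose crypts. The acinar list held 27 of them, and 7 more were for Amy2a1, Amy2a4, Prss3, Ctrc, Pdia2, Gm10334, and 2210010C04Rik, of which the first 4 encode secreted pancreatic enzymes. The remaining probe was for Pck1, which was singled out after its values had been seen, as were Azin1, Lias, and the other genes without overlap below.

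**Figure D2:**
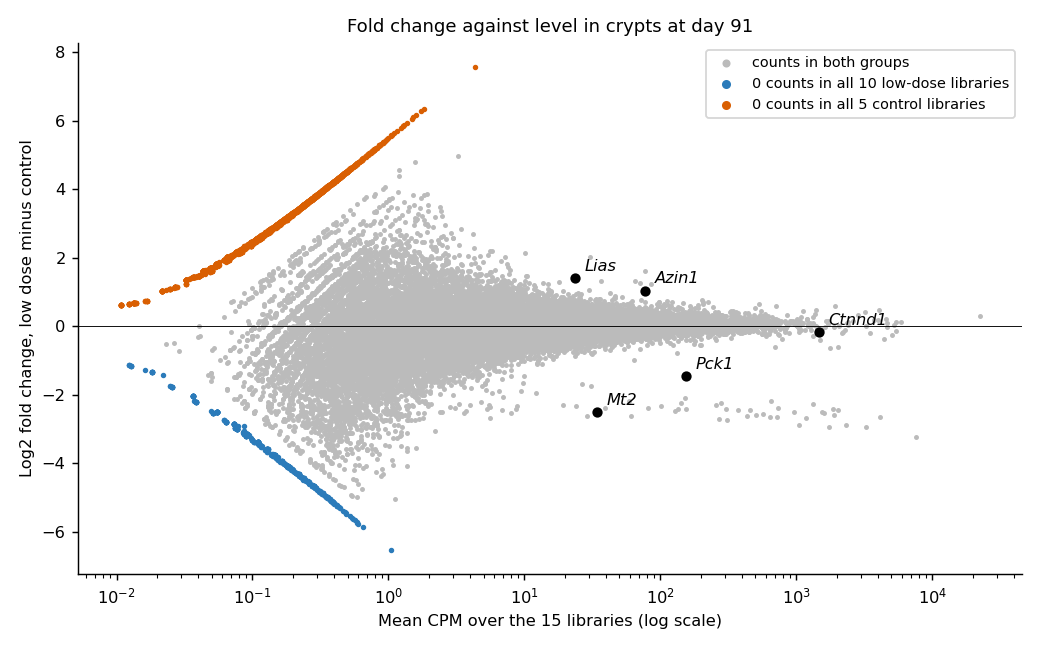
Log2 fold change, low-dose minus control crypts, against mean CPM over the 15 libraries (log10 axis), with 1 point for each tested probe and probes without counts in one of the groups in color. The probes far from 0 at low level were mostly the colored ones, and Pck1 at −1.45 lay away from most probes above 100 CPM, apart from pancreatic ones such as Cpa1 at −2.95.

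Pck1 encodes cytosolic phosphoenolpyruvate carboxykinase, the enzyme that commits carbon to gluconeogenesis and that also serves glyceride synthesis in the intestine. Its gene lies at chr2:173153048-173159273 on the plus strand of GRCm38. The levels were 265, 393, 264, 119.8, and 296 CPM in control mice 3, 5, 6, 7, and 8. Low-dose crypts ran from 42.4 CPM through a median of 99.1 to 149 CPM, and 8 of the 10 were below every control. The ranges met only through control mouse 7, the lowest of the controls by far. The log2 fold change was −1.45 ± 0.43 (SE) with an unadjusted p of 0.00105 and an adjusted p of 0.525, and it was −1.49 at 0.1 ppm and −1.42 at 1.4 ppm.

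The call on Pck1 depended on which libraries shared the fit. In a fit of the 15 libraries alone, the log2 fold change was −1.46 ± 0.24 with an adjusted p of 0.056, and Pck1 and Azin1 were then 2 called probes of 16937 (0.0118%). DESeq2 on the same 15 libraries gave Pck1 an adjusted p of 6.53e-05. In a fit of the remaining 12 libraries alone, without the 3 acinar-rich libraries, it was −1.61 with an adjusted p of 0.00966. Leaving out any single library kept the value between −1.66 and −1.29, in the fit of all libraries.

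Across concentrations at day 91, mean Pck1 in the crypt was 268 ± 98.2 CPM at 0 ppm (n = 5) and 97.7 ± 34.7 CPM in the pooled low doses (n = 10). It was 104 ± 86.0 CPM at 5 ppm, 27.3 ± 16.7 CPM at 20 ppm, 7.59 ± 2.02 CPM at 60 ppm, and 7.68 ± 3.66 CPM at 180 ppm. The mean of the low-dose crypts was near that at 5 ppm and between those of untreated crypts and of 20 ppm. At day 8, after 7 days, the untreated crypts had a mean of 385 ± 342 CPM, and the 0.1, 1.4, and 5 ppm crypts had means of 361 ± 171, 276 ± 199.9, and 126 ± 80.0 CPM, so that the spread among the untreated was nearly as large as their mean. The log2 fold change of the pooled low doses was −0.25. In the villus at day 91, 4 control libraries ran from 229 to 1401 CPM with a median of 795, and 10 low-dose libraries from 118 to 471 CPM with a median of 291. These villus libraries came from the same mice as the crypts, so they are not separate animals. The difference between the day 91 and day 8 effects in the crypt had an unadjusted p of 0.0599, and none of these doses was tested against another here.

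The window from 250 bases before to 50 bases after the RefSeq start of Pck1 is shown because Pck1 had the largest difference among well expressed transcripts outside the pancreatic genes. It covers chr2:173152823-173153122 on the plus strand (GRCm38.p6), and the capitals mark the letters TTACGTCA, a cyclic AMP response element, found at −93 from the start.
Pck1 promoter: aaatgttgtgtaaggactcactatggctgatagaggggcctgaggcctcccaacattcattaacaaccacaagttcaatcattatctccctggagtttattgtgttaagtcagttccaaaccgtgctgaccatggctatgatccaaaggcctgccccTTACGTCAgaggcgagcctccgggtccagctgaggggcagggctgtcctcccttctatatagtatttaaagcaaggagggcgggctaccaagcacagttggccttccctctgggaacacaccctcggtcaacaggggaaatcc
Of 32851 mouse promoter windows of the same length, 0.499% held TTACGTCA on either strand. The match describes the sequence only.

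Of all genes with a mean above 10 CPM, the metallothionein gene Mt2 gave the smallest p. Mt2 encodes one of the 2 ubiquitous metallothioneins and lies at chr8:94172664-94173568 on the plus strand. Its levels were 25.2, 276, 15.2, 25.4, and 40.6 CPM in control mice 3, 5, 6, 7, and 8. Low-dose crypts ran from 0 through a median of 12.7 to 36.3 CPM, and 8 of 10 were below every control. Control mouse 5, the acinar-rich library, was far above the rest. The log2 fold change was −2.51 ± 0.67 with an unadjusted p of 0.000241 and an adjusted p of 0.525. Without mouse 5 it was −0.999 (unadjusted p = 0.162), and without the 3 acinar-rich libraries −1.12 ± 0.79 (unadjusted p = 0.161). With the acinar level of each library as a covariate and all libraries kept, it was −1.94 (unadjusted p = 0.00201).

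Mt1, the neighbor of Mt2 at chr8:94179082-94180327 on the same strand, had lower levels and the same sign. Controls had 27.9, 32.5, 5.56, 4.81, and 0 CPM, and low-dose crypts ran from 0.738 through a median of 3.51 to 4.55 CPM. Low-dose crypts were close together, whereas controls spread from 0 to the highest value of all 15 libraries. The log2 fold change was −2.07 ± 0.94 (unadjusted p = 0.0281), and −1.54 without mouse 5. Mt2 was at −2.04 at 0.1 ppm and −3.23 at 1.4 ppm, and Mt1 at −2.03 and −2.12. These were the 2 genes below an unadjusted p of 0.05 among the 13 measured genes of the metallothionein and zinc list, whose median log2 fold change was −0.25 beside 0.016 over all probes. Without the 3 acinar-rich libraries that median was 0, with 6 genes above 0 and 6 below. Mean Mt2 at day 91 was 18.5 ± 10.9 CPM at 0.1 ppm and 8.10 ± 6.17 CPM at 1.4 ppm, beside 20.97 ± 15.1 CPM at 5 ppm, 97.7 ± 80.4 CPM at 20 ppm, 102 ± 51.2 CPM at 60 ppm, and 35.2 ± 19.1 CPM at 180 ppm. The untreated crypts of day 8 had 16.1 ± 17.6 CPM, within the range of the low-dose crypts of day 91. At day 8 the low-dose difference of Mt2 was −0.16, and the difference between the days had an unadjusted p of 0.0201.

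The promoters of both genes are shown because the pair is known to respond to metals through short metal response elements, whose core is TGCACNC or TGCGCNC. Capitals mark each match on either strand in the same 300-base windows, which are chr8:94178839-94179138 for Mt1 and chr8:94172368-94172667 for Mt2 on the plus strand.
Mt1 promoter: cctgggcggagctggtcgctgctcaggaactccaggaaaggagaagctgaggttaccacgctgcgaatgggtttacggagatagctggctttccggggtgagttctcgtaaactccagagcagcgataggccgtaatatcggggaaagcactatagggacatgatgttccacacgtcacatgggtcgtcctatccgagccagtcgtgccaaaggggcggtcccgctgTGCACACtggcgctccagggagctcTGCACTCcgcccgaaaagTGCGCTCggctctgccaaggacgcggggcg
Mt2 promoter: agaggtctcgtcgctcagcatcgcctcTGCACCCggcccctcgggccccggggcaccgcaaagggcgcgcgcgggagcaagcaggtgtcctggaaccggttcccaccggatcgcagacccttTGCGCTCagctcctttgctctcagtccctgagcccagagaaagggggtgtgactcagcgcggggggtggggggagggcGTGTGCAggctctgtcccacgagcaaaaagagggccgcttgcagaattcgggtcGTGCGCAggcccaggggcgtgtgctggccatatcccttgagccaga
Mt1 held 3 matches, between −23 and 20 from its start, and Mt2 held 4, between −223 and 4. Of all promoter windows, 25.7% held at least 1 match of either core, 1.97% held at least 3, and 0.517% held at least 4. No matches overlapped.

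Some other transcripts were also highest in mouse 5. Nupr1, a small stress-induced nuclear protein that is abundant in stressed pancreas, was at 18.2, 200.3, 1.48, 30.6, and 6.55 CPM in controls and ran from 0 through 7.10 to 37.7 CPM in low-dose crypts. Its log2 fold change was −2.34 ± 0.78, −0.51 without mouse 5, and −1.71 with the acinar level as a covariate. Zg16, a lectin of goblet cell and pancreatic secretory granules, was at 1031, 6318, 1464, 1682, and 1093 CPM in controls and between 1153 and 2584 CPM in low-dose crypts. Its value was −0.65 with all libraries, −0.43 with the acinar covariate, and 0.16 without mouse 5, so that its sign rested on that library.

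Ranges that did not overlap between the 5 controls and the 10 low-dose crypts were found for 22 probes on the higher side (0.0834% of 26365) and 9 on the lower side (0.0341%). Of these 31, 20 had means that summed to over 20 CPM, 15 higher and 5 lower, with log2 fold changes between 0.33 and 1.30 in size. None was called. The higher ones were for Azin1, Cs, Gm11437, Rab18, Arfgef1, Ssu72, Adar, Rbm47, Naa20, Lpar1, Taf1d, Ppp1cb, Churc1, Xpo1, and Cd55, and the lower ones for Washc3, Dab2ip, Tango2, Mnt, and Wdsub1.

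Azin1 encodes antizyme inhibitor 1, which frees ornithine decarboxylase for polyamine synthesis, and lies at chr15:38487427-38519266 on the minus strand. Controls had 44.6, 36.0, 50.2, 32.4, and 64.9 CPM, and low-dose crypts ran from 69.8 through a median of 87.4 to 135 CPM. Every low-dose crypt was above every control. The log2 fold change was 1.04 ± 0.33 (unadjusted p = 0.00201), 0.84 at 0.1 ppm and 1.21 at 1.4 ppm. In the fit of the 15 libraries it was 1.02 ± 0.18 with an adjusted p of 0.0886. Mean levels at day 91 were 45.6 ± 12.8 CPM in untreated crypts, 81.8 ± 8.67 and 105 ± 22.9 CPM in the 0.1 and 1.4 ppm crypts, and 124 ± 43.9, 108 ± 22.2, 219 ± 107, and 163 ± 66.0 CPM in the 5, 20, 60, and 180 ppm crypts. The day 8 controls had a mean of 79.8 ± 25.5 CPM, which is within the range of the low-dose crypts of day 91, beside 97.1 CPM in the day 8 low-dose crypts.

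Adar, which edits adenosine to inosine in double-stranded RNA, had 35.4, 52.9, 37.6, 47.8, and 41.6 CPM in controls and from 56.4 through 71.9 to 96.0 CPM in low-dose crypts. The log2 fold change was 0.74 ± 0.25 (unadjusted p = 0.00368). Its day 8 controls had a mean of 85.7 CPM, above both day 91 groups, and the day 8 difference was −0.39. Cs, the citrate synthase of the tricarboxylic acid cycle, was the most abundant of the 20, with 420 to 572 CPM in controls and 580 to 707 CPM in low-dose crypts. Its log2 fold change was 0.35 ± 0.19, while a second Cs probe was at 0.14 ± 0.19.

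**Figure D3:**
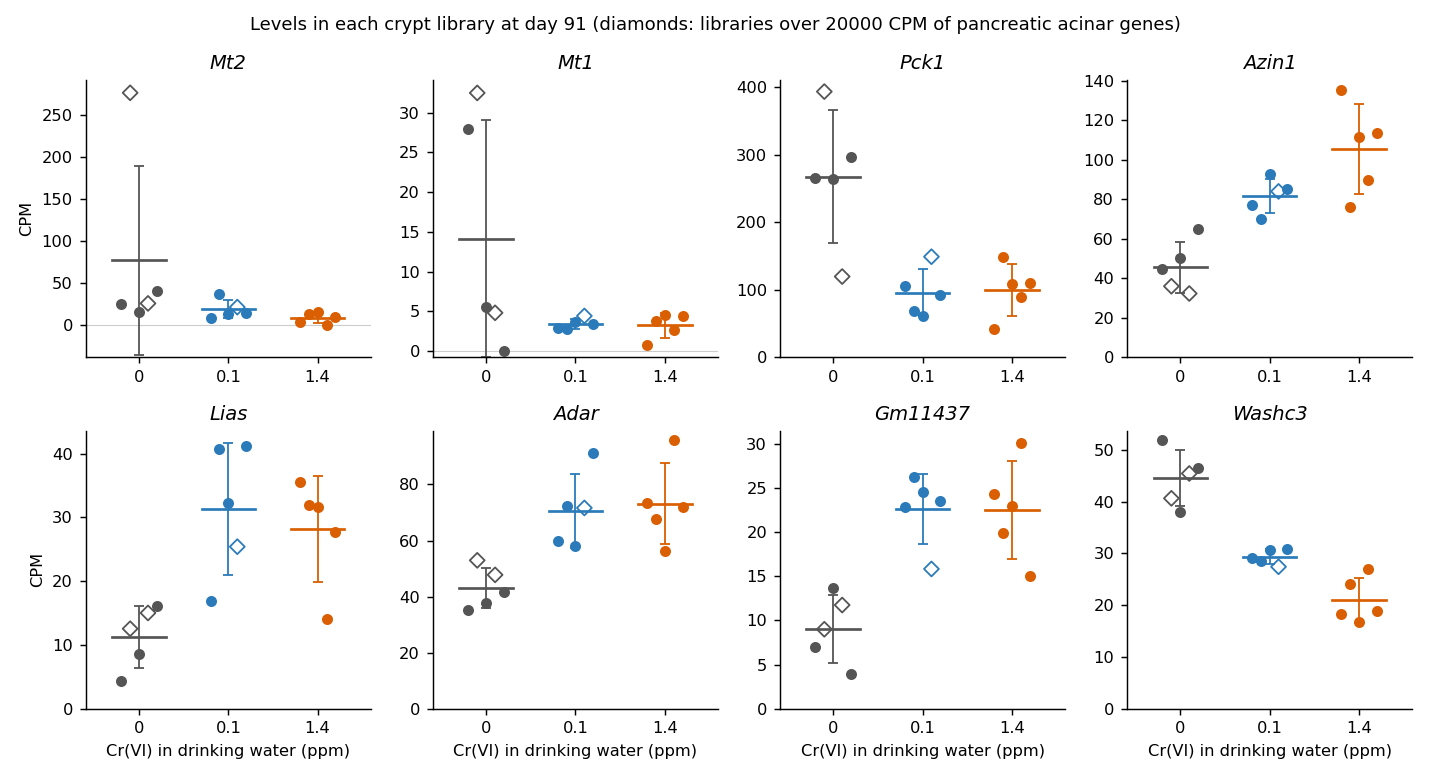
CPM of 8 probes in each of the 15 crypt libraries against concentration (0, 0.1, and 1.4 ppm), with lines and bars for the mean ± SD of each concentration (n = 5) and open diamonds for the 3 acinar-rich libraries. Pck1 and Mt2 were low in most exposed libraries beside controls, with Mt2 at 276 CPM in control mouse 5, and Azin1 and Adar had no overlap between groups.

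Probes of one gene did not always move together. Lias, the lipoic acid synthase of mitochondria at chr5:65391497-65410693 on the plus strand, had 4.37, 12.6, 8.52, 15.02, and 16.1 CPM in controls and from 14.1 through 31.8 to 41.1 CPM in low-dose crypts by one probe. That probe gave 1.40 ± 0.48 (unadjusted p = 0.00415) with 9 of 10 low-dose crypts above every control, whereas the second Lias probe gave −0.90 ± 0.80. Washc3, a subunit of the endosomal WASH complex at chr10:88201093-88246158 on the plus strand, had 51.9, 40.7, 38.0, 45.5, and 46.5 CPM in controls and from 16.7 through 27.2 to 30.9 CPM in low-dose crypts. Its log2 fold change was −0.82 ± 0.34, while its second probe gave 0.37 ± 0.46. These Lias and Washc3 probes were called with Gpr22 in a fit of the 35 day 91 crypt libraries of all concentrations, 3 probes of 19166 (0.0157%), with adjusted p values of 0.0418 for Lias and 0.0905 for Washc3. Gpr22, an orphan receptor, had no counts in the 5 controls. Cd55, an inhibitor of complement, was at 0.98 ± 0.38 by the probe without overlap and at −0.01 ± 0.36 by another.

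The probes without overlap were picked by where the day 91 controls lay, so no count over them is given for the untreated crypts of day 8. With 1 control group at day 91, the exposure and a property of those 5 control libraries cannot be told apart for these probes.

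**Figure D4:**
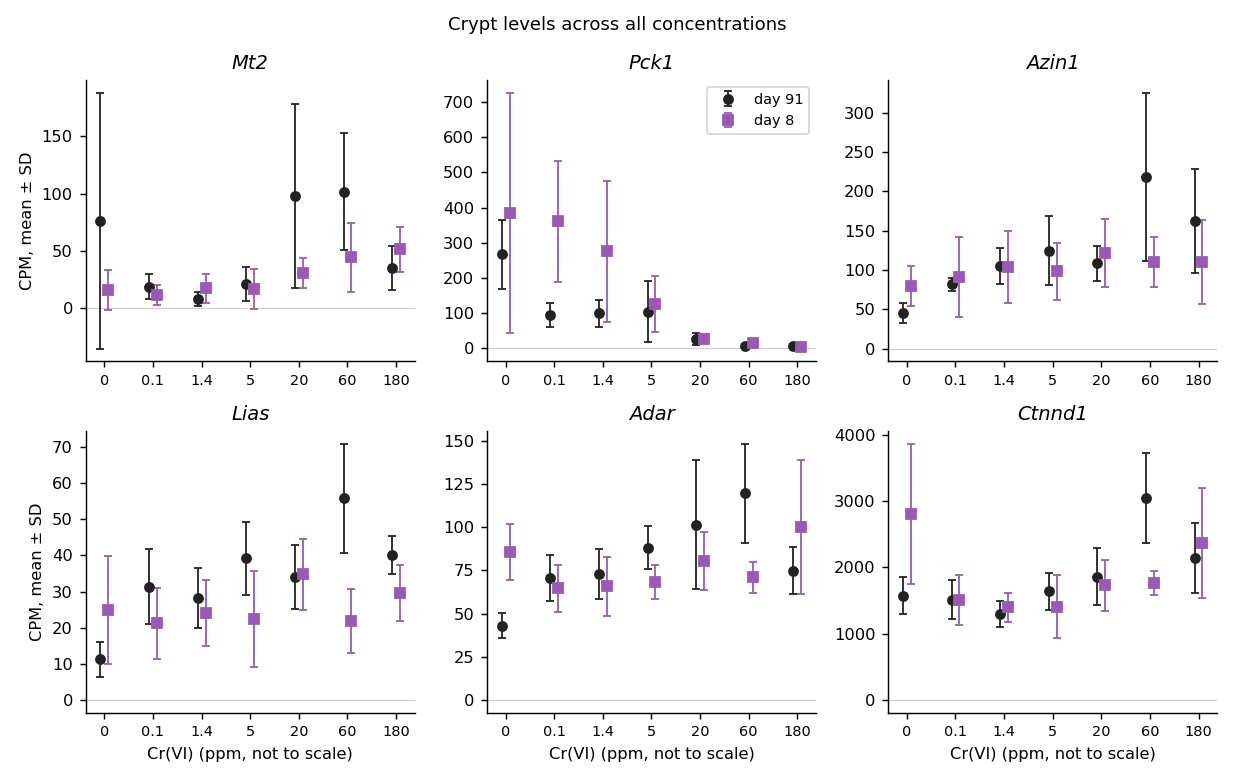
Mean CPM ± SD over libraries against Cr(VI) concentration (categories, not to scale) for Mt2, Pck1, Azin1, Lias, Adar, and Ctnnd1 in crypts of both days. Pck1 had 268 CPM in untreated crypts at day 91 and 7.68 CPM at 180 ppm, and Azin1 had 45.6 CPM in untreated day 91 crypts against 79.8 CPM in untreated day 8 crypts.

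The genes that define crypt cells showed no call. Stem cell and Wnt target genes had a median log2 fold change of 0.12 over 16 genes, beside 0.016 over all probes. Olfm4, a marker of crypt base stem cells, had a mean of 296 ± 81.4 CPM in controls and 364 ± 108 CPM in low-dose crypts, and Axin2, a target of Wnt signaling, 248 ± 49.1 and 244 ± 44.8 CPM. Tnfrsf19 was the 1 gene of that list with an unadjusted p below 0.05, and it had no counts in controls. Paneth cell genes had a median of 0.03 over 10, and the defensins Defa22 and Defa24 were at 0.12 ± 0.49 and 0.03 ± 0.44. Goblet cell genes had a median of 0.12 over 8, with Fcgbp, a mucus protein, at 0.44 ± 0.26.

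Differentiated and neighboring cell types were described the same way. Absorptive enterocyte genes had a median of 0.05 over 20, and Krt20, a keratin of differentiated epithelium, was at 0.54 ± 0.27, with 238 to 509 CPM in controls and 417 to 730 CPM in low-dose crypts. The abundant Fabp2, a fatty acid binding protein, was at 0.28 ± 0.28 and Vil1, the villin of the brush border, at −0.02 ± 0.19. Tuft cell genes were at a median of −0.18 over 8 and enteroendocrine genes at −0.15 over 14, of which Nts, the peptide neurotensin, was below an unadjusted p of 0.05 with means of 1.09 and 0.0554 CPM. Plasma and B cell genes were at 0.11, with Igha, the heavy chain of secreted IgA, at −0.15 ± 0.29. T cell genes were at 0.06, macrophage genes at −0.06, mast cell genes at 0.43, fibroblast genes at 0.21, endothelial genes at −0.22, and enteric neuron and glia genes at −0.24. Smooth muscle genes, which mark the muscle wall, were at −0.15, with Myl9 at 517 ± 79.6 CPM in controls and 511 ± 120 CPM in low-dose crypts. Pancreatic islet genes had a median of −1.46 over 5. Without the 3 acinar-rich libraries, the endothelial median was 0.26, the neuron and glia median 0.27, the macrophage median 0.02, the mast cell median 0.86, the plasma and B cell median 0.46, and the islet median −0.59, beside 0.12 over all probes.

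Proliferation lists held few genes with a small p. The 33 DNA replication and S phase genes had a median of 0.02 and none below an unadjusted p of 0.05. Pcna, the sliding clamp of replication, had 115 ± 34.4 CPM in controls and 119.8 ± 19.1 CPM in low-dose crypts, and Mcm6 of the replicative helicase was at 0.25 ± 0.25. The 23 mitosis genes had a median of 0.09 and none below that p, with Top2a, a topoisomerase of dividing cells, at 0.17 ± 0.40. Replication-dependent histones had 38 of 44 genes below 0 and a median of −0.20, and again none below that p. Without the 3 acinar-rich libraries 28 of 45 histone genes were below 0, with a median of −0.11 beside 0.12 over all probes. The 76 cytosolic ribosomal protein genes had a median of −0.06, and of 0.09 without the acinar-rich libraries, and the 53 translation initiation factor genes 0.08 with 1 on the lower side, Eif4e1b, which had no counts in the low-dose crypts.

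DNA damage and oxidative stress lists were also without a call. Of 26 p53 target and DNA damage genes, which had a median of 0.05, 1 was below an unadjusted p of 0.05, Cdkn1a, the cyclin-dependent kinase inhibitor p21. It had 4.61, 14.7, 7.97, 15.4, and 9.83 CPM in controls and from 11.7 through 17.3 to 27.5 CPM in low-dose crypts, a log2 fold change of 0.85 ± 0.35. Gadd45a, another damage-induced gene, was at 0.07 ± 0.22 and Bax, which promotes apoptosis, at −0.09 ± 0.22. The Fanconi anemia and homologous recombination list had a median of 0.04 over 22, and of −0.11 without the acinar-rich libraries. Of 26 Nrf2 and antioxidant genes 19 were above 0, with a median of 0.24, and 1 was below that p, G6pdx, which feeds NADPH to the antioxidant systems, with 9.0 to 37.4 CPM in controls, 23.5 to 58.4 CPM in low-dose crypts, and a value of 0.78 ± 0.31. The ranges of Cdkn1a and G6pdx overlapped over all 15 libraries, for Cdkn1a only through the acinar-rich control mice 5 and 7. The abundant glutathione transferases Gsta1 and Gstm3 were at 0.59 ± 0.36 and 0.58 ± 0.32, and Gstp1 at −0.05 ± 0.21. Gsta1 had 1291 to 1547 CPM in controls and spread from 995 to 2907 CPM in low-dose crypts.

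Of 82 xenobiotic metabolism genes, 56 were above 0 and 23 below, with a median of 0.12. At an unadjusted p below 0.05, 2 genes were on the higher and 3 on the lower side, beside 3.21% and 2.52% of all probes. Without the 3 acinar-rich libraries 45 genes were above 0 and 32 below, with a median of 0.06 beside 0.12 over all probes. Cyp2c55, a cytochrome P450 of the intestine, had 19.6, 25.4, 67.5, 56.0, and 57.3 CPM in controls and from 36.1 through 116 to 138 CPM in low-dose crypts, 9 of 10 of them above every control. Its log2 fold change was 1.22 ± 0.47 (unadjusted p = 0.0108), and its mean at 60 and 180 ppm was 51.1 and 23.9 CPM. The other 4 genes of that list (Sult1e1, Cyp2b23, Cyp2d11, and Cyp3a44) had means of at most 1.02 CPM. Oxidative phosphorylation genes had a median of 0.07 over 79, with 4 on the higher side at an unadjusted p below 0.05, beside 3.21% of all probes. Of the 4, Ndufc2 at 0.75 ± 0.32 and Uqcrb at 0.40 ± 0.20 had counts in every library, and Cox8c and Sdhb had none in controls. Gluconeogenesis, a list of 3, held Pck1 beside Fbp1, fructose-bisphosphatase, at 0.03 ± 0.42 and G6pc, glucose-6-phosphatase, at −0.24 ± 0.74. Fatty acid oxidation and PPAR alpha targets were at 0.05, bile acid genes at 0.06, and iron handling genes at 0.11, with Cybrd1 on the higher side and Hamp on the lower, both below 3 CPM on average.

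Interferon response genes had 19 of 26 above 0 and a median of 0.26. Below an unadjusted p of 0.05 were Oasl1, an antiviral protein with 7.37 to 23.5 CPM in controls, 13.99 to 35.8 CPM in low-dose crypts, and a value of 0.83 ± 0.35, and Mx2, which had no counts in the controls. Without the 3 acinar-rich libraries the median was 0.31 beside 0.12 over all probes. Immediate early genes had a median of −0.09 over 22, with Egr3 on the higher side and Junb, a subunit of AP-1, at −0.94 ± 0.46. Junb was at −0.45 without control mouse 3 and at −1.48 without the acinar-rich libraries. Endoplasmic reticulum stress genes were at −0.19 with all libraries and 0.08 without the acinar-rich ones. Hypoxia genes were at 0.16, heat shock genes at 0.15, sulfate and anion transport genes at 0.05 (among them Slc26a3, an anion exchanger, at 0.25 ± 0.37), antigen presentation genes at 0.12, chemokine genes at −0.03, inducible epithelial defence genes at −0.31, glucocorticoid response genes at −0.23, and circadian clock genes at 0.09. Immunoglobulin variable segments had a median of 0.15 over 166. Olfactory receptors had 0.00 over 746, with 45 on the higher and 74 on the lower side at an unadjusted p below 0.05. The receptors were near 0 in level, with 1168 probed genes that summed to at most 492.8 CPM in controls and 331.7 CPM in low-dose crypts. Among all probes with a mean below 1 CPM, 16% were under that p in either direction. Over all probes the shares at that p were 3.21% higher and 2.52% lower. Without the acinar-rich libraries, the olfactory receptors had a median of 1.52 over 865, although 53 of them were on the lower and 4 on the higher side at that p, so the median and the counts differed in sign. In the same setting the chemokine median was 0.35, the inducible defence median 0, the immediate early median 0.01, the bile acid median 0.48, and the gluconeogenesis median −0.61. None of the 47 lists had a called member in either direction by edgeR in the fit of all libraries.

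**Figure D5:**
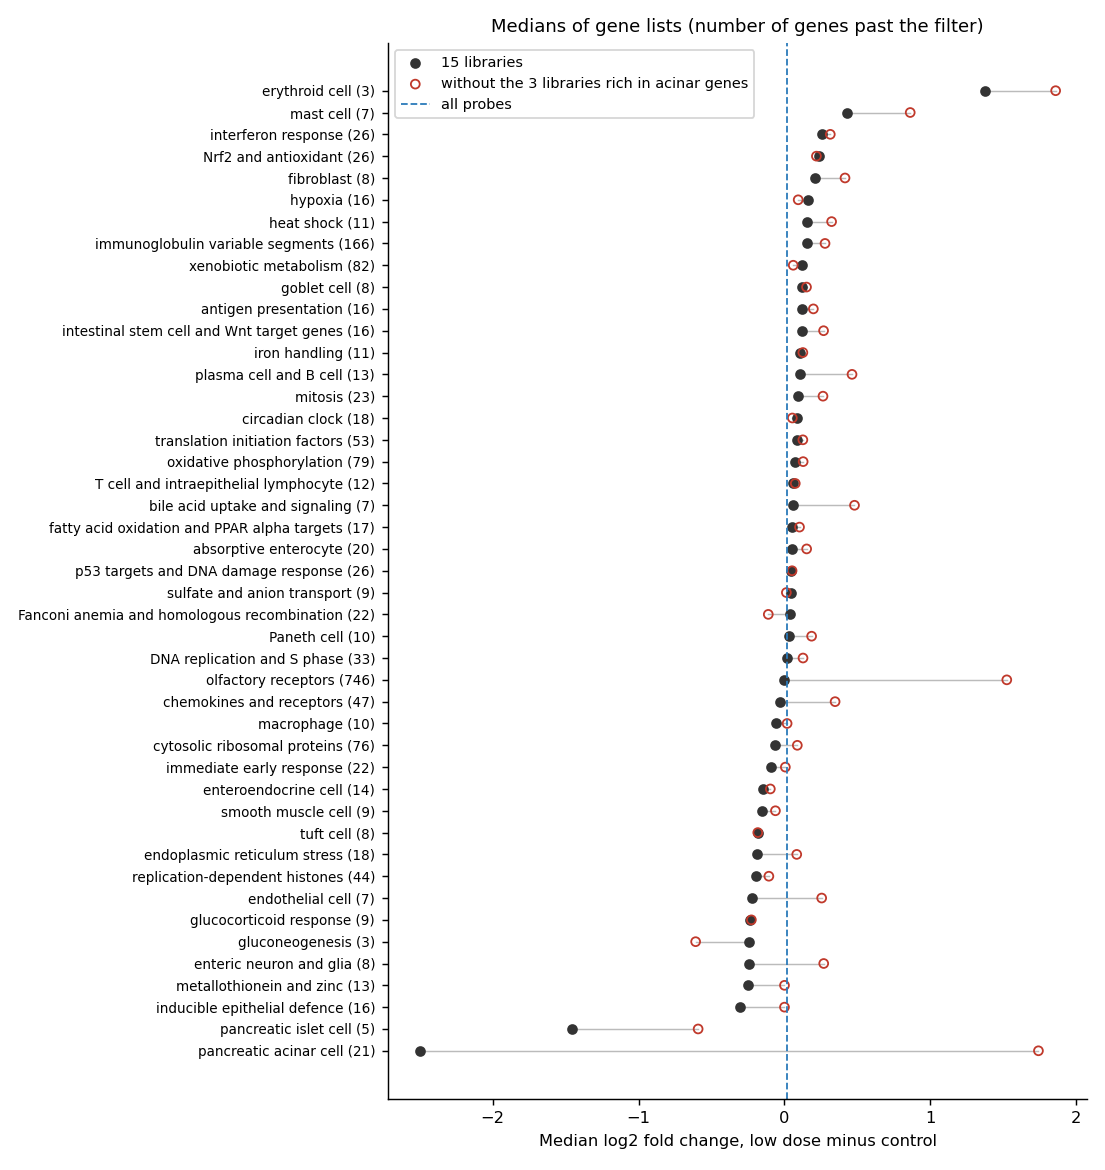
Median log2 fold change, low-dose minus control crypts, of each gene list with at least 3 measured genes, over all 15 libraries (filled) and without the 3 acinar-rich ones (open), with the median of all probes at 0.016 as a dashed line. The acinar list, by whose sum the 3 libraries were picked, went from −2.50 to 1.74 between the 2 settings. Most other filled points lay between −0.31 and 0.43.

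The study named 9 of the next 10 genes in its account of low-dose crypts and the last, Duox2, for villi. Their choice is thus not independent of these samples, and none was called by edgeR. DESeq2 on all libraries called Egr3, Slc34a2, and Slc5a8 for low dose against control. Between 1.4 and 0.1 ppm it called Slc34a2, Muc6, Ppy, Reg2, and Saa1. The only abundant gene of the 10 was Ctnnd1, the catenin p120 of cell junctions. It had 1331, 1648, 1229, 1875, and 1786 CPM in controls and from 1045 through 1429 to 1796 CPM in low-dose crypts, ranges that overlapped, with a log2 fold change of −0.16 ± 0.21. At day 8 the same contrast gave −0.95 with an adjusted p of 0.0537, one of 3 probes called at that day (0.0114%), beside Ugt2b5 and H2-DMa. The difference between the days for Ctnnd1 had an unadjusted p of 0.00793. Egr3, an early growth response factor, had no counts in any control and 13 or fewer in 6 of the 10 low-dose libraries. Slc34a2, a phosphate transporter, and Slc5a8, a monocarboxylate transporter, had no counts in the controls and some in 3 low-dose libraries each. Saa1, Reg2, Ppy, Muc6, Slc10a2, and Duox2 had means of at most 5.19 CPM in either group, with unadjusted p values between 0.258 and 0.725.

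The probes of smallest p were mostly rare ones. Of the 25 smallest, 24 were lower in low-dose crypts and 23 had no counts in any of the 10 low-dose libraries, and Mt2 alone had a mean above 10 CPM. The first was Dhrs9, a retinol dehydrogenase, which had 55 counts in control mouse 3, 12 in control mouse 6, and 0 in the other 13 libraries. The others included Midn, Cep85, Dnah10, Bcl2a1a, Atp6v1b1, Irx1, Csf3, and Zic2, and further probes were at 0.15 and −0.07 for Midn and at 0.49 for Cep85. Nrgn, the calmodulin-binding neurogranin, was the one on the higher side, with counts in 9 of 10 low-dose libraries and none in the controls. Over all tested probes, 995 had no counts in the low-dose group and 2685 none in the control group, and the median mean of the 665 lower probes was 0.757 CPM in controls.

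The 12 genes that DESeq2 called in the fit of all libraries were of this kind. They were Egr3, Slc34a2, Slc5a8, Acod1, 2010109I03Rik, 2610028H24Rik, Igkv8-34, and the B cell genes Ms4a1, Ighd, Pax5, Cr2, and Fcer2a, and every one had 0 counts in all libraries of one group. The other group had counts in 1 to 6 libraries, with a highest count of 1 to 229 in a library, and no fold is given for them. DESeq2 on the 15 libraries alone called 15 other genes, namely Pck1, Azin1, Ugt1a7c, Nrgn, Gm11437, Lias, Cyp2c55, Washc3, Ces2f, Adar, Gm6788, Enkur, Mvd, Cd55, and Gpr22. It was given 30146 probes, of which 8273 received no adjusted p. The called probes of Nrgn, Ces2f, Enkur, and Gpr22 also had no counts in any control, and that of Gm6788 had 1 count in 1 control. The more abundant Ces2f probe was at 0.59 in the edgeR fit of all libraries and was not called. Among the 15, Ugt1a7c, a glucuronosyltransferase, had 129 to 164 CPM in controls and 162 to 285 CPM in low-dose crypts by the called probe. That probe was at 0.65 ± 0.28 in the fit of all libraries. The Ugt1a7c probe with the highest count over all libraries was at 0.12, and another was at 0.28. Mvd, an enzyme of the mevalonate pathway, had 0, 0, 2, 2, and 0 counts in controls and 8 to 25 counts in the low-dose libraries.

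No difference between the pooled doses passed the test. Between 1.4 and 0.1 ppm, 0 of 26365 probes (0%) were called by edgeR, with a smallest adjusted p of 0.948 and with 469 higher and 889 lower at an unadjusted p below 0.05, and DESeq2 called 12 genes. Pck1 differed by 0.06 on the log2 scale, Azin1 by 0.36, and Mt2 by −1.19, with unadjusted p values of 0.906, 0.313, and 0.152. The effect of low doses at day 91 minus that at day 8 also gave 0 called probes (0%), with a smallest adjusted p of 0.248 and with 1310 probes higher and 877 lower at an unadjusted p below 0.05, and DESeq2 called 5 genes. A p above the threshold does not show that the doses or the days were alike.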

How the data were processed

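RNA of 137 crypt and villus libraries was measured with TempO-Seq by the authors, who sequenced single-end reads, removed libraries of low depth or diversity, and deposited read counts per probe without normalization (30146 probes, 21450 genes). Per the labels, bcl2fastq 2.17.1.14 and Bowtie were used, and the genome build is not given in the sources used here. The libraries of this comparison, its gene lists, and its tests were chosen with earlier results of these data known. Every column matched 1 sample.

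Differential expression was tested here with edgeR 4.0.16 (with limma 3.58.1 under R 4.3.3). All libraries entered 1 quasi-likelihood model of 27 groups in which the low doses of day 91 were pooled, after filterByExpr and TMM scaling, with a trended dispersion, a prior count of 2, and no covariates. Crypt and villus libraries of the same mouse entered without a term for the mouse. Two-sided p values were adjusted by Benjamini-Hochberg over all tested probes, and the threshold was 0.1. The fit had 28 groups for 1.4 against 0.1 ppm and 26 for the difference between days. Comparisons of low dose, 0.1 ppm, and 1.4 ppm with control share the same 5 controls. A gene in a list was represented by its probe of highest mean count. Total counts, which limit precision to that given with each SE, were compared with an exact permutation test. The script for the fit was tested on simulated data.

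Genes named are the 25 of smallest p, 9 that the study names for low-dose crypts, Duox2, which it names for villi, and in each list the 3 most abundant members and any that passed. Others were chosen after their values were seen. Not every gene of this rule is described, and the result of 1 gene is not reported here. Lists were described by counts and medians, without set tests. Alternatives were DESeq2 1.42.0, its size factors, 2 other filters, the default quasi-likelihood form, other sets of libraries, covariates, thinned counts, summed probes, and leaving out libraries. Coordinates are GENCODE M21 on GRCm38 and promoters are RefSeq, with Python 3.11.15, pandas 2.3.3, numpy 2.4.6, scipy 1.17.1, and matplotlib 3.10.9.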

Additional observations from a re-analysis of the deposited data

Results flagged for a closer look

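Libraries far from the other 4 of their concentration were sought with Dixon's ratio (critical value 0.71 for 5 samples) in 125 combinations of a group with a measure, and 15 were found. Chance flags about 1 in 20 such groups if values follow a normal distribution, which list sums at 0 in most libraries do not. These measures are not independent of each other. Single genes, Mt2, Nupr1, and Zg16 among them, were entered because the text describes them, so their flags are no separate evidence.

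Control mouse 5 held 6 of the 15. The acinar list summed to 201000 CPM there, with 29500 CPM in the next control, and the goblet cell list to 8260 CPM, with 3280 CPM next. Mt2 was at 276 CPM against 40.6 CPM next, Nupr1 at 200 CPM against 30.6 CPM, and Zg16 at 6320 CPM against 1680 CPM. The erythroid list was at 1.36 CPM there and at 0 in the other controls. Mouse 84 at 0.1 ppm stood high in 3 of the same measures, with 40500 CPM for the acinar list (10600 CPM next), 37.7 CPM for Nupr1 (14.2 CPM next), and 2580 CPM for Zg16 (1510 CPM next). With the acinar level as a covariate, the low-dose log2 fold changes were −1.94 for Mt2, −1.71 for Nupr1, and −0.43 for Zg16, with unadjusted p values of 0.00201, 0.00531, and 0.072 from edgeR.

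The other values fell in single libraries. The Paneth cell list summed to 23000 CPM in mouse 161 at 1.4 ppm, with 11200 CPM in the next library. The enteroendocrine list was lowest in mouse 163 at 1.4 ppm, at 376 CPM with 472 CPM next. The tuft cell list was lowest in mouse 82 at 0.1 ppm, at 56.2 CPM with 71.6 CPM next, and the pancreatic islet list was highest in the same mouse, at 116 CPM with 24.7 CPM next. The Brunner gland list was at 0.813 CPM in mouse 85 at 0.1 ppm and at 0 in the other 4. Olfm4 was lowest in control mouse 8, at 157 CPM with 297 CPM next.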

How the results depend on the processing

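For low doses against control, the count of called genes stayed at 0 with DESeq2 size factors, other filters, the default quasi-likelihood form, a threshold of 0.05, thinned counts, summed probes, separate groups for the doses, each covariate, and every left-out library (0 to 0), also for the other 2 contrasts where run. It was 12 with DESeq2 on all libraries, 2 with the 15 libraries only, and 3 with the 35 day 91 crypt libraries. Chosen after seeing the data, DESeq2 on the 15 libraries gave 15, and leaving out the 3 acinar-rich libraries gave 0 in the fit of all groups and 2 (Pck1 and Tet1) in a fit of the rest. DESeq2 gave 12 for 1.4 against 0.1 ppm and 5 for the difference between days. The cause of these differences was not tested. Separate groups for the doses gave 624 probes higher and 1143 lower at an unadjusted p below 0.05, against 845 and 665. The depth comparison had p from 0.192 to 0.773 without 1 library. Over the named genes and alternatives, 7207 values were counted as keeping their sign and their side of the threshold, 340 changed sign without passing it, and 20 kept their sign and passed it. The 7207 include fold changes of exactly 0 and values without an adjusted p, which have no sign or no side of the threshold to keep. No paired analysis was possible because the control and low-dose crypts came from different mice whose numbers match no pairs. Depth limits transcripts below 10 CPM most.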

Other observations

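Some B cell transcripts were counted in few of the libraries. Igkv8-34, a kappa light chain variable segment, had 229 counts in mouse 164 at 1.4 ppm, 39 in mouse 84 and 8 in mouse 85 at 0.1 ppm, 1 in mouse 163, and 0 in the other 11 libraries, all 5 controls included. Ms4a1, which encodes the B cell antigen CD20, had 21 counts in mouse 81, 11 in mouse 165, 1 in mouse 84, and 0 elsewhere, and Ighd, the heavy chain of naive B cells, had 18 in mouse 161 and 6 in mouse 82. The constant regions of secreted antibodies were abundant in every library, with Igha between 2877 and 10316 CPM in controls and between 3857 and 6498 CPM in low-dose crypts. Of 166 measured variable segments, 9 were on the higher and 4 on the lower side at an unadjusted p below 0.05. None was called by edgeR, while DESeq2 on all libraries called Igkv8-34. Over all probes the shares at that p were 3.21% higher and 2.52% lower.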
